A study of Saccharomyces cerevisiae with 12 samples.

Results

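The transcripts described here come from 9 genes of ergosterol synthesis in diploid Saccharomyces cerevisiae: HMG1, HMG2, ERG1, ERG11, ERG25, ERG6, ERG2, ERG3 and ERG5. They were taken by name from the 5656 genes that had a probe set of their own on the Affymetrix Yeast S98 array, and each of the 9 was read by 1 probe set, of a type annotated to a single target. The study asked how yeast without the G protein alpha subunit Gpa2 answers a low-nitrogen medium, in which diploid cells can turn to pseudohyphal growth. It used 12 arrays, 3 from separate cultures of each of 4 groups.

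The groups were the gpa2 deletion in SLAM, the gpa2 deletion in YPM, the wild type in SLAM and the wild type in YPM. The deletion strain was MLY132, with both GPA2 copies replaced by a G418 resistance marker, and the wild type was MLY61. Both were MATa/alpha and homozygous for ura3-52, so every group lacks URA3 function. All cultures were grown in YPM, a rich maltose medium, to an OD600 of 1.0. The YPM cells were collected there, and the SLAM cells were filtered and held for 2 h at 30 °C in SLAM, made of 0.17% yeast nitrogen base with 2% maltose and, as nitrogen source, 50 µM ammonium sulfate. The media differ in more than nitrogen, and those differences and the transfer itself cannot be told apart from the nitrogen supply. Each genotype was a single strain.

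Ergosterol is the main sterol of yeast membranes, where it fills the place that cholesterol has in animal cells. The pathway runs from acetyl-CoA through mevalonate to squalene, then through lanosterol to ergosterol. HMG-CoA reductase is its main control point. Several later steps need molecular oxygen and heme, and sterol-sensing transcription factors adjust many of the genes to supply.

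Log2 expression values for GPA2 fitted the strain labels. They were 5.42, 5.14 and 5.49 in the gpa2 deletion in SLAM and 5.60, 5.20 and 5.48 in the deletion in YPM, against 11.10, 11.00 and 10.56 in the wild type in SLAM and 10.27, 9.70 and 10.00 in the wild type in YPM. URA3 lay between 4.20 and 5.28 on the 12 arrays. Array medians over all probe sets lay between 7.33 and 7.50. Of 15 haploid and mating-type genes, which a MATa/alpha diploid keeps low, 7 averaged no more than 5.60, the highest reading of the deleted GPA2, among them STE2, GPA1, FUS1 and HO. MFA2, STE4 and RME1 were the highest of the others, at 8.49, 8.32 and 7.53. MFA2 and STE4 lay above 8.15, the median of all gene means, so the set was not low throughout. MFA1 averaged 8.17 in SLAM against 6.49 in YPM in the deletion, and 8.23 against 6.41 in the wild type. RME1 was also higher in SLAM, at 8.32 against 7.05 in the deletion and 7.93 against 6.80 in the wild type. STE3 was lower, at 6.46 against 6.69 and 6.43 against 6.67. No ergosterol gene read under 8.86 on any array, so none was near the level of a deleted gene.

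SLAM against YPM in the gpa2 deletion asked how the mutant's pathway transcripts differed after the shift. HMG1, which encodes an HMG-CoA reductase, and ERG5, which encodes a sterol side-chain desaturase near the end of the pathway, rose in SLAM by 1.67-fold and 1.81-fold. The other 7 genes did not pass the test, which was limma over all 5656 genes with Benjamini-Hochberg adjustment and a threshold of 0.05 on the adjusted p. The 2 higher and 0 lower calls among 9 genes, 22.2%, compare with 28.1% of all genes called in either direction, 13.4% higher and 14.8% lower. The share of ergosterol genes called was thus no larger than that of the table as a whole.

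In the wild type, SLAM against YPM gave 0 calls among the 9 ergosterol genes, where 12.6% of all genes were called, 5.23% higher and 7.34% lower. At an unadjusted p under 0.05, limma gave 2 of the 9, ERG5 and ERG25, beside 1806 of all 5656 genes. ERG5 and ERG25 had adjusted p-values of 0.0587 and 0.0635. The median log2 difference of the 9 genes, SLAM minus YPM, was 0.30 in the deletion and 0.51 in the wild type, beside 0.01 and -0.05 over all genes. The median size of a difference was 0.45 and 0.51 for the 9 genes and 0.49 and 0.42 for all genes. Arrays read RNA from whole cultures, in which fewer cells of a type and less RNA per cell cannot be told apart.

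**Figure D1:**
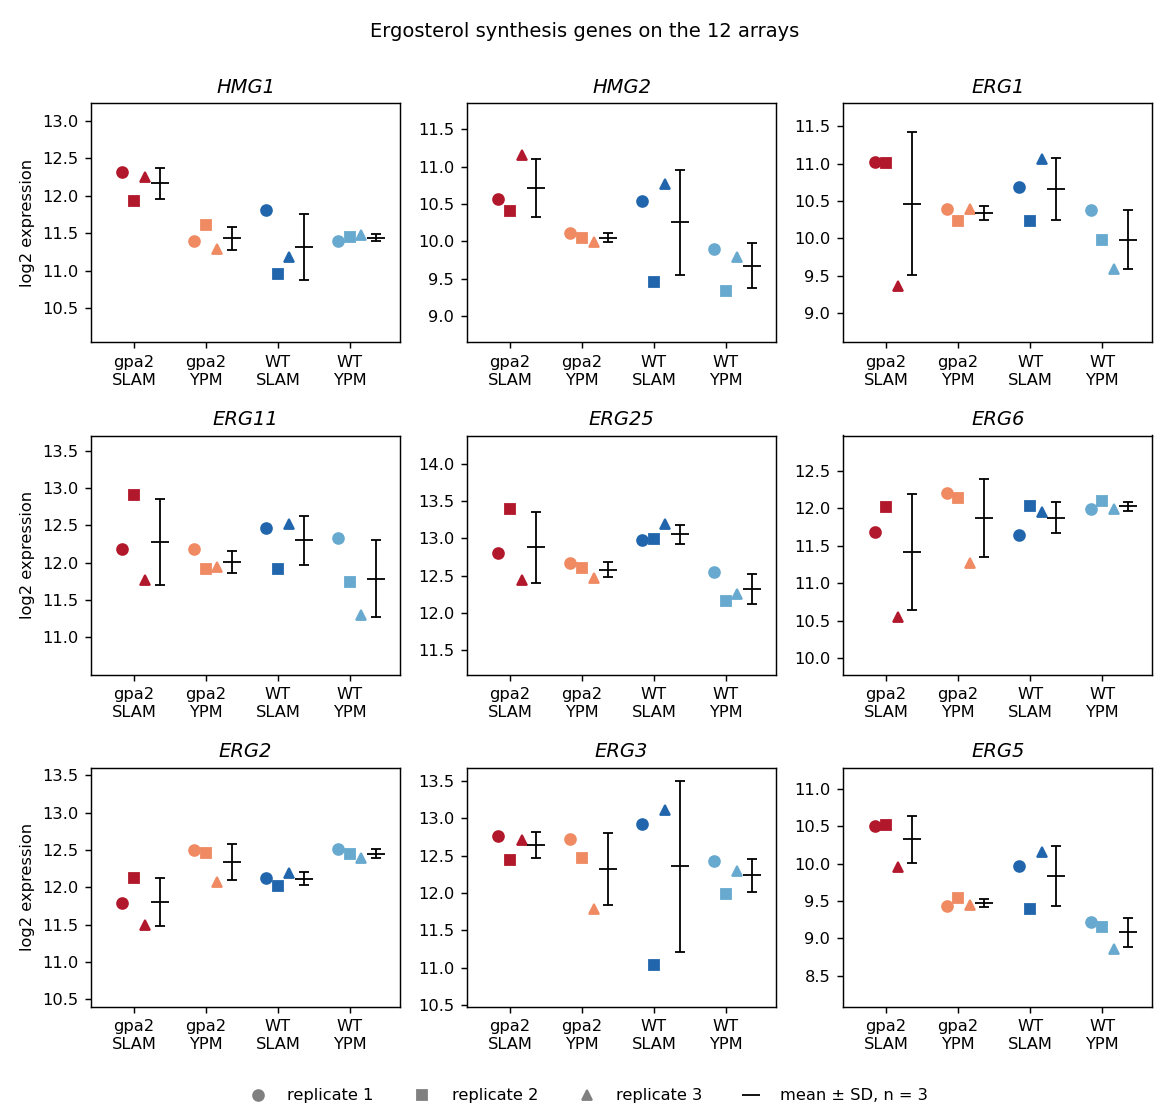
Log2 expression of the 9 ergosterol genes on each of the 12 arrays, with the mean and SD of the 3 arrays of a group beside the points. HMG1 was higher on all 3 deletion SLAM arrays than on any other array, and ERG3 had 1 wild-type SLAM array at 11.04 against 12.92 and 13.12 on the others of its group.

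HMG1 and HMG2 encode the HMG-CoA reductase isozymes, which make mevalonate. The Hmg1 enzyme is the long-lived one, and the Hmg2 enzyme is degraded when sterol intermediates are plentiful. HMG1 read 12.32, 11.93 and 12.25 in the gpa2 deletion in SLAM, against 11.39, 11.60 and 11.29 in the deletion in YPM. Wild-type HMG1 read 11.80, 10.95 and 11.18 in SLAM, against 11.39, 11.45 and 11.48 in YPM. All 3 deletion SLAM values lay above the other 9, and the other groups overlapped one another.

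The HMG1 group means were 12.17 ± 0.21 in the deletion in SLAM, 11.43 ± 0.16 in the deletion in YPM, 11.31 ± 0.44 in the wild type in SLAM and 11.44 ± 0.05 in the wild type in YPM (SD, n = 3 each). SLAM minus YPM was 0.74 in the deletion, with a standard error (SE) of 0.23, a 95% interval from 0.23 to 1.25 and an adjusted p of 0.0346. The wild-type difference was -0.13, with an interval from -0.64 to 0.38 and an adjusted p of 0.761, and it was -0.37 without wild-type SLAM 1 and 0.05 without wild-type SLAM 2. The order of the group means set the deletion in SLAM first, and the 3 groups below it did not differ beyond their spread.

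The HMG1 call in the deletion depended on single arrays. It missed the threshold without deletion SLAM 1 (adjusted p = 0.113) or 3 (0.0826), without deletion YPM 1 (0.101), 2 (0.0618) or 3 (0.0890), and without wild-type YPM 2 (0.0504) or 3 (0.0527). Its log2 difference stayed between 0.66 and 0.86 over the 12 fits that left out 1 array each.

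HMG2 read 10.57, 10.41 and 11.15 in the deletion in SLAM, against 10.11, 10.05 and 9.99 in the deletion in YPM, and these groups did not overlap. Wild-type HMG2 read 10.54, 9.46 and 10.77 in SLAM, against 9.90, 9.34 and 9.80 in YPM, where the low wild-type SLAM 2 array brought the groups into overlap. SLAM minus YPM was 0.66 (SE 0.33, adjusted p = 0.152) in the deletion and 0.58 (SE 0.33, adjusted p = 0.246) in the wild type. Without wild-type SLAM 2 the differences were 0.66 (adjusted p = 0.0426) in the deletion and 0.98 (adjusted p = 0.0191) in the wild type. No other single array left out gave an HMG2 call. With deletion SLAM 3 left out as well, HMG2 passed in the wild type only (adjusted p = 0.119 in the deletion), and with limma's array weights, which call far more of the whole table, it passed in both strains (adjusted p = 0.0207 and 0.0057).

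ERG1 encodes squalene epoxidase, the first oxygen-dependent enzyme of the pathway and the target of the antifungal terbinafine. Its values were 11.03, 11.00 and 9.36 in the deletion in SLAM, against 10.39, 10.23 and 10.39 in the deletion in YPM. Wild-type ERG1 read 10.69, 10.24 and 11.05 in SLAM, against 10.38, 9.98 and 9.59 in YPM. Deletion SLAM 3 was the lowest of all 12 readings of ERG1, and the other deletion SLAM arrays lay above every YPM array. SLAM minus YPM was 0.13 (95% interval -0.75 to 1.00, adjusted p = 0.850) in the deletion and 0.68 (adjusted p = 0.273) in the wild type, so no difference in ERG1 was resolved. The deletion's value rested on single arrays: it was 0.68 (adjusted p = 0.111) without deletion SLAM 3, -0.16 without deletion SLAM 1 and -0.15 without deletion SLAM 2.

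ERG11 encodes lanosterol demethylase, the target of azole antifungals, and ERG25 encodes the sterol methyl oxidase that acts downstream of it. ERG11 read 12.18, 12.90 and 11.76 in the deletion in SLAM, against 12.18, 11.91 and 11.95 in the deletion in YPM. Wild-type ERG11 read 12.46, 11.92 and 12.51 in SLAM, against 12.32, 11.74 and 11.30 in YPM. The groups of ERG11 overlapped in both strains, with differences of 0.27 (adjusted p = 0.579) in the deletion and 0.51 (adjusted p = 0.307) in the wild type. The deletion's ERG11 difference was -0.04 without deletion SLAM 2 and 0.53 without deletion SLAM 3. The wild type's was 0.78 without wild-type YPM 1 and 0.27 without wild-type YPM 3.

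ERG25 read 12.80, 13.39 and 12.44 in the deletion in SLAM, against 12.67, 12.60 and 12.46 in the deletion in YPM, and the groups overlapped. Wild-type ERG25 read 12.97, 12.99 and 13.19 in SLAM, against 12.55, 12.16 and 12.25 in YPM, and every SLAM value lay above every YPM value. SLAM minus YPM was 0.30 (SE 0.24, adjusted p = 0.384) in the deletion and 0.73 (SE 0.24, 95% interval 0.21 to 1.25, adjusted p = 0.0635) in the wild type. ERG25 thus had a larger measured difference in the wild type, but the test of the difference of responses, given further on, did not separate the strains. The deletion's difference was 0.05 without deletion SLAM 2 and 0.52 without deletion SLAM 3. The wild-type difference passed without deletion SLAM 2 (adjusted p = 0.0343) or deletion SLAM 3 (adjusted p = 0.0377), whose spread for ERG25 enters the pooled error.

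ERG6 encodes the sterol methyltransferase that adds the side-chain carbon which sets ergosterol apart from cholesterol. ERG6 read 11.68, 12.02 and 10.55 in the deletion in SLAM, against 12.20, 12.14 and 11.27 in the deletion in YPM. Wild-type ERG6 read 11.64, 12.03 and 11.96 in SLAM, against 12.00, 12.10 and 11.99 in YPM. Deletion SLAM 3 and deletion YPM 3 were the lowest of their groups. SLAM minus YPM was -0.45 (95% interval -1.23 to 0.32, adjusted p = 0.371) in the deletion and -0.15 (adjusted p = 0.811) in the wild type. The deletion's ERG6 difference was -0.02 without deletion SLAM 3, -0.76 without deletion SLAM 2 and -0.75 without deletion YPM 3, and the wild type's was -0.04 without wild-type SLAM 1.

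ERG2 encodes the sterol ring isomerase, the next enzyme. It read 11.79, 12.13 and 11.50 in the deletion in SLAM, against 12.51, 12.45 and 12.07 in the deletion in YPM, and 1 SLAM array lay within the YPM range. Wild-type ERG2 read 12.12, 12.02 and 12.20 in SLAM, against 12.51, 12.44 and 12.39 in YPM, and all 3 SLAM values lay below the YPM values. ERG2 was the ergosterol gene with the most negative difference in both strains, at -0.54 (SE 0.21, adjusted p = 0.0769) and -0.33 (SE 0.21, adjusted p = 0.301). In the deletion it passed without deletion SLAM 2 (-0.70, adjusted p = 0.0333) or without deletion YPM 3 (-0.67, adjusted p = 0.0479).

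ERG3 encodes a sterol ring desaturase, which acts between the ERG2 and ERG5 enzymes. Its values were 12.77, 12.44 and 12.71 in the deletion in SLAM, against 12.72, 12.47 and 11.78 in the deletion in YPM. Wild-type ERG3 read 12.92, 11.04 and 13.12 in SLAM, against 12.42, 11.99 and 12.30 in YPM. The wild-type SLAM group of ERG3 had an SD of 1.15, the widest of any ergosterol gene in any group, because 1 array was low. Its differences were 0.32 (adjusted p = 0.642) in the deletion and 0.12 (95% interval -0.86 to 1.11, adjusted p = 0.882) in the wild type. Leaving out the low array, wild-type SLAM 2, gave 0.78 (adjusted p = 0.0580) in the wild type, and leaving out wild-type SLAM 1 or 3 gave -0.16 and -0.25. The deletion's ERG3 difference was 0.05 without deletion YPM 3 and 0.51 without deletion YPM 1.

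ERG5 had the largest SLAM difference of the 9 in both strains. It read 10.51, 10.51 and 9.96 in the deletion in SLAM, against 9.44, 9.54 and 9.45 in the deletion in YPM. Wild-type ERG5 read 9.97, 9.39 and 10.16 in SLAM, against 9.22, 9.16 and 8.86 in YPM. SLAM and YPM did not overlap in either strain. The group means were 10.33 ± 0.32 in the deletion in SLAM, 9.47 ± 0.06 in the deletion in YPM, 9.84 ± 0.40 in the wild type in SLAM and 9.08 ± 0.19 in the wild type in YPM (SD, n = 3 each).

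SLAM minus YPM for ERG5 was 0.85 in the deletion (SE 0.24, 95% interval 0.33 to 1.38, adjusted p = 0.0211), which passed. For the wild type it was 0.76 (SE 0.24, 95% interval 0.23 to 1.29, adjusted p = 0.0587), which did not. The deletion call missed the threshold without deletion SLAM 1 (adjusted p = 0.0806) or 2 (0.0579), or without deletion YPM 1 (0.0688) or 2 (0.0578). The wild-type difference passed without wild-type SLAM 2 (0.98, adjusted p = 0.0107) or without deletion SLAM 3 (adjusted p = 0.0417). ERG5 was therefore close to the threshold in both strains, on opposite sides of it.

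**Figure D2:**
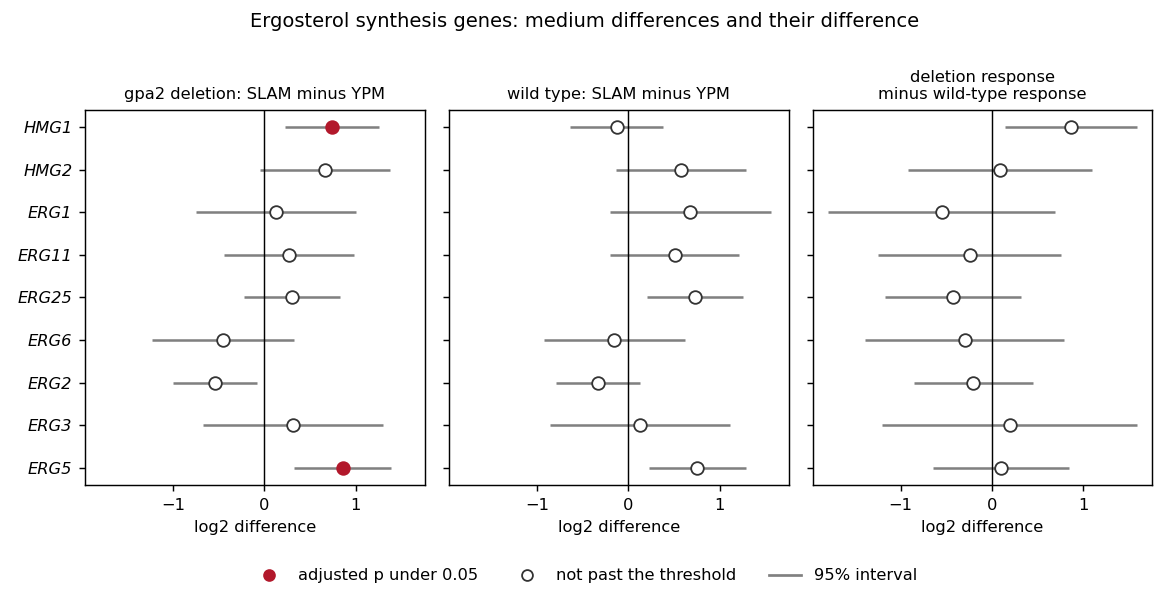
Log2 differences of the 9 genes with 95% intervals: SLAM minus YPM in the gpa2 deletion, SLAM minus YPM in the wild type, and the deletion's response minus the wild type's. Filled points passed an adjusted p of 0.05, which only HMG1 and ERG5 did in the deletion; all intervals of the difference of responses include 0 except that of HMG1.

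Counted without a test, the groups did not overlap for 3 genes higher in SLAM and 0 lower in the deletion (HMG1, HMG2 and ERG5), where 44.6% of all genes did not overlap, 22.9% higher and 21.7% lower. In the wild type they did not overlap for 2 higher (ERG5 and ERG25) and 1 lower (ERG2), where 35.5% of all genes did not, 15.2% higher and 20.4% lower. Both counts were near the share of the whole table. The number of calls in the deletion lay between 0 and 3 when single arrays were left out. It was 0 without deletion SLAM 1, deletion YPM 1 or deletion YPM 2, where 16.7% to 18.2% of all genes were called, and 1 without deletion SLAM 3, wild-type YPM 2 or wild-type YPM 3, where 22.2% to 24.9% were. It was 3 without wild-type SLAM 2, where 34.6% of all genes were called. The wild-type count was 2 without wild-type SLAM 2 (HMG2 and ERG5), beside 25% of all genes, and 2 without deletion SLAM 3 (ERG5 and ERG25), beside 15.7%. It was 1 without deletion SLAM 2 (ERG25), beside 14.0%, and 0 without any other single array, beside 1.10% to 14.3%.

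Differences between the strains were then read within each medium. These comparisons share arrays with the ones above. In SLAM, limma called 0 of the 9 genes between deletion and wild type, where 2.81% of all genes were called. By direction, 1.08% of all genes were called higher in the deletion and 1.73% lower. Only HMG1 had an unadjusted p under 0.05, against 1297 of all 5656 genes. Only HMG1 had groups that did not overlap, higher in the deletion, against 21.4% of all genes, 10.8% higher and 10.6% lower. HMG1 was 0.86 higher in the deletion (SE 0.23, 95% interval 0.35 to 1.37, 1.81-fold), with an unadjusted p of 0.00326 and an adjusted p of 0.0651. It passed without wild-type SLAM 1, at 1.10 (adjusted p = 0.0323), and with no other single array left out.

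The remaining strain differences in SLAM, deletion minus wild type, ran from -0.46 for ERG6 (adjusted p = 0.488) to 0.49 for ERG5 (adjusted p = 0.257). HMG2 differed by 0.46 (adjusted p = 0.448) and by 0.06 (adjusted p = 0.933) when wild-type SLAM 2 was left out. ERG3 differed by 0.28, ERG11 by -0.02, ERG25 by -0.17, ERG1 by -0.20 and ERG2 by -0.31, with adjusted p-values between 0.423 and 0.983. Several of these rested on 1 array. ERG3 was at -0.38 and ERG5 at 0.27 without wild-type SLAM 2. Without deletion SLAM 3, ERG1 was at 0.36, ERG11 at 0.24, ERG25 at 0.04, ERG2 at -0.16 and ERG6 at -0.03. Leaving out other arrays widened some differences. Without deletion SLAM 2, ERG6 was at -0.76, ERG2 at -0.47, ERG25 at -0.43 and ERG11 at -0.33. Without wild-type SLAM 3, HMG2 was at 0.71, ERG3 at 0.66 and ERG5 at 0.65. The intervals were wide for several genes: that of ERG1 ran from -1.08 to 0.68 and that of ERG3 from -0.71 to 1.26. The median over the 9 genes was -0.02, beside -0.03 over all genes.

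In YPM, limma called 0 of the 9 genes between the strains and 0 had an unadjusted p under 0.05, against 220 of all 5656 genes. Of all genes 0.0177% was called, which is GPA2 itself. The differences, deletion minus wild type, ran from -0.16 for ERG6 to 0.39 for ERG5, with adjusted p-values from 0.994 to 0.999. HMG1 was at -0.01, with a 95% interval from -0.52 to 0.50. With single arrays left out, HMG1, ERG11, ERG2, ERG3 and ERG6 took either sign. HMG2 (0.37) and ERG5 (0.39) had groups that did not overlap, both higher in the deletion, where 19.2% of all genes did not overlap, 5.99% higher and 13.2% lower in the deletion.

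**Figure D3:**
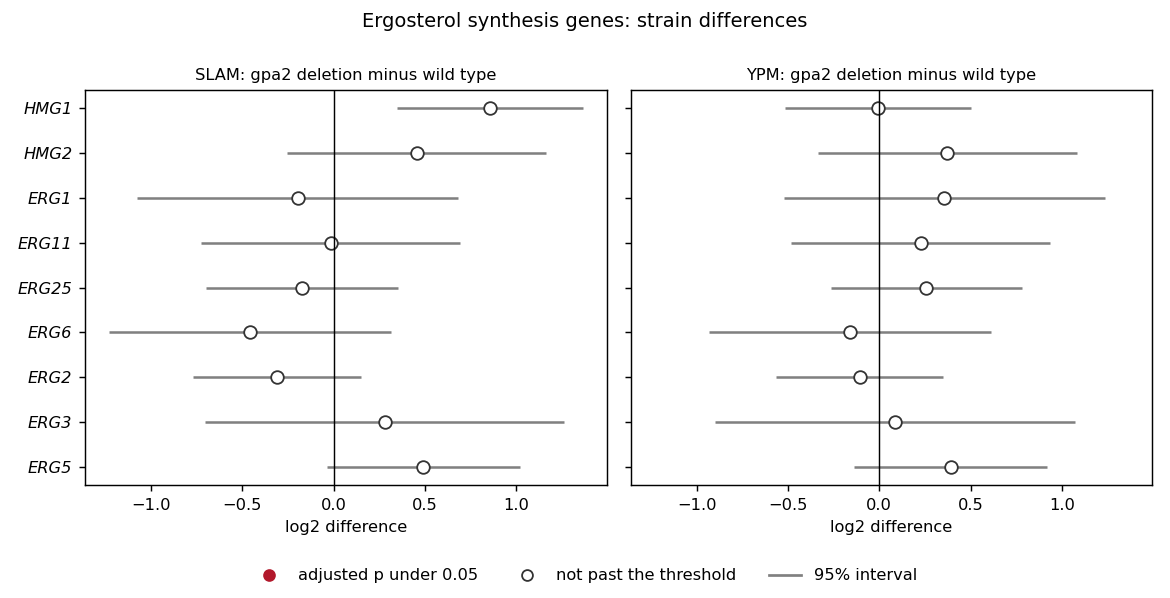
Log2 differences of the 9 genes between the gpa2 deletion and the wild type, with 95% intervals, in SLAM and in YPM. No gene passed an adjusted p of 0.05, and HMG1 in SLAM, at 0.86, is the only one whose interval lies clear of 0.

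The difference of responses set the deletion's SLAM minus YPM against the wild type's. HMG1 had the largest value of the 9, 0.86 (SE 0.33, 95% interval 0.14 to 1.59), with an unadjusted p of 0.0227 and an adjusted p of 0.980. ERG1 followed at -0.55 (95% interval -1.80 to 0.69) and ERG25 at -0.43 (95% interval -1.17 to 0.31), and the other 6 lay between -0.30 and 0.19. ERG5, called in the deletion only, differed by 0.10 (95% interval -0.65 to 0.84). HMG1, ERG25 and ERG2 kept their sign with any single array left out; the others took either sign, ERG1 reaching 0.00 without deletion SLAM 3. None of the 9 passed, and 0% of all 5656 genes did, with 228 genes at an unadjusted p under 0.05 and a smallest adjusted p of 0.173. A response of HMG1 particular to the deletion was thus not resolved over the table.

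The SLAM groups were less even than the YPM groups. The median SD of the 9 genes was 0.39 in the deletion in SLAM, 0.15 in the deletion in YPM, 0.40 in the wild type in SLAM and 0.20 in the wild type in YPM, beside 0.34, 0.23, 0.39 and 0.21 over all genes. Wild-type SLAM 2 was the lowest array of its group for 7 of the 9 genes, and the median gene lay 0.57 below the mean of the other arrays of the group. Deletion SLAM 3 was the lowest for 6 of the 9, with a median of -0.55, and deletion YPM 3 for 6, with a median of -0.17. Those arrays were the lowest of their group for 41.7%, 47.8% and 39.1% of all genes. Wild-type YPM 1 was the lowest of its group for 50.0% of all genes, yet the highest for 7 of the 9 ergosterol genes.

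**Figure D4:**
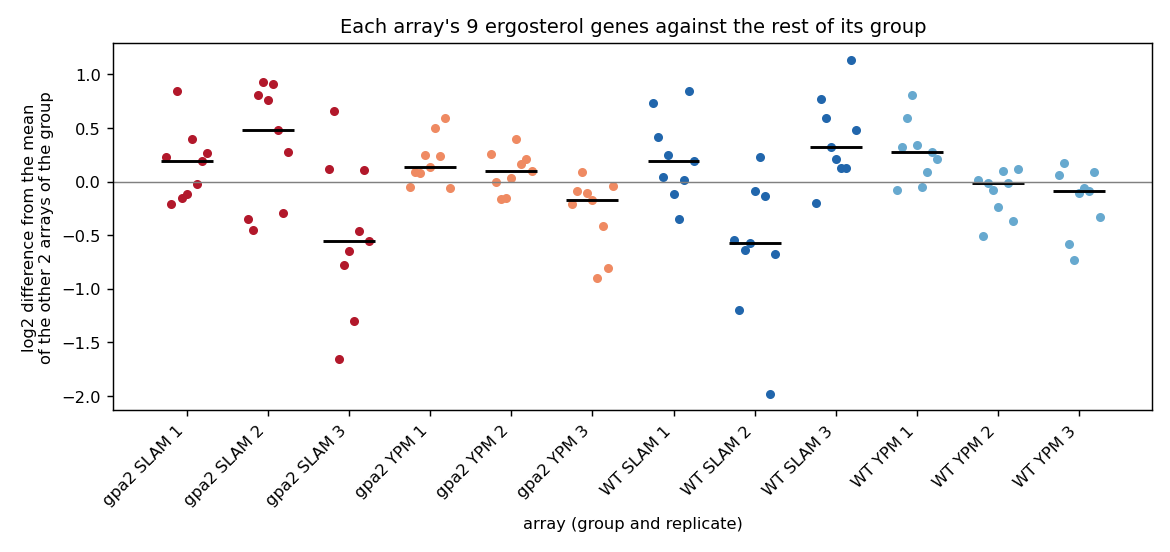
Each point is 1 of the 9 ergosterol genes on 1 array, as the log2 difference from the mean of the other 2 arrays of its group; bars mark the median gene. Deletion SLAM 3 and wild-type SLAM 2 have medians of -0.55 and -0.57, below those of the other 10 arrays.

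Without wild-type SLAM 2 and deletion SLAM 3 together, a choice made after seeing the values, 2 genes passed in the deletion: HMG1 at 0.70 (adjusted p = 0.0371) and ERG5 at 1.04 (adjusted p = 0.00194), where 32.1% of all genes were called. Among wild-type differences 4 then passed, HMG2 at 0.98, ERG1, ERG5 at 0.98 and ERG25 at 0.76, all higher in SLAM, and 31.4% of all genes were called. Between the strains 0 passed in either medium. How far those arrays reflect their cultures or their hybridisation was not tested.

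The other enzymes of the pathway were read from lists drawn up by role. Shares called and medians in these lists stand beside those of all genes given above. Those were 28.1% and 0.01 in the deletion and 12.6% and -0.05 in the wild type. Counts at an unadjusted p under 0.05 in the wild type stand beside 1806 of all 5656 genes. Of 7 early genes, from acetyl-CoA to farnesyl diphosphate, 1 rose in the deletion in SLAM and 0 fell, and in the wild type 0 were called, with 1 at an unadjusted p under 0.05. The list's median difference was -0.12 in the deletion and -0.07 in the wild type. The gene that rose was IDI1, the isopentenyl diphosphate isomerase, at 10.31 ± 0.52 in SLAM against 9.51 ± 0.17 in YPM in the deletion (SD, n = 3 each), a difference of 0.80 (SE 0.27, adjusted p = 0.0450). Its wild-type difference was 0.73 (adjusted p = 0.0881), and ERG8, mevalonate phosphate kinase, came next by p at -0.17 (adjusted p = 0.727). Leaving out single arrays, the IDI1 call in the deletion held only without deletion SLAM 2, wild-type SLAM 2 or wild-type SLAM 3, and the adjusted p reached 0.182 without one of the others.

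Of 9 late genes beside the ones above, from squalene to ergosterol, 1 rose and 1 fell in the deletion in SLAM. ERG9, squalene synthase, which commits farnesyl diphosphate to sterols, averaged 12.27 ± 0.15 in SLAM against 11.31 ± 0.16 in YPM in the deletion, a rise of 0.96 (SE 0.20, adjusted p = 0.0041). ERG4, the reductase that completes ergosterol, averaged 9.44 ± 1.06 in SLAM against 11.17 ± 0.26 in YPM in the deletion and fell by 1.73 (SE 0.43, adjusted p = 0.0109). Both passed with any single array left out, ERG9 between 0.88 and 1.04 and ERG4 between -2.22 and -1.17. The adjusted p then reached 0.0243 for ERG9 and 0.0445 for ERG4. The list's median difference in the deletion was -0.54, opposite in sign to that of the 9 genes described first, so measured differences ran both ways along the pathway.

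Among those 9 late genes 0 were called in the wild type, and 3 had an unadjusted p under 0.05, beside 1806 of all 5656 genes. The smallest p-values belonged to ERG27, the sterol keto reductase, at -0.82 (adjusted p = 0.0581), and to ERG4 at -1.28 (adjusted p = 0.0658). ERG9 was at 0.56 (adjusted p = 0.0768). SLAM and YPM did not overlap in the wild type for 1 late gene higher in SLAM, ERG9, and 3 lower, ERG27, ERG4 and NCP1, the last at -0.22 and named after its values were seen, beside 35.5% of all genes. The list's median there was 0.16.

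**Figure D5:**
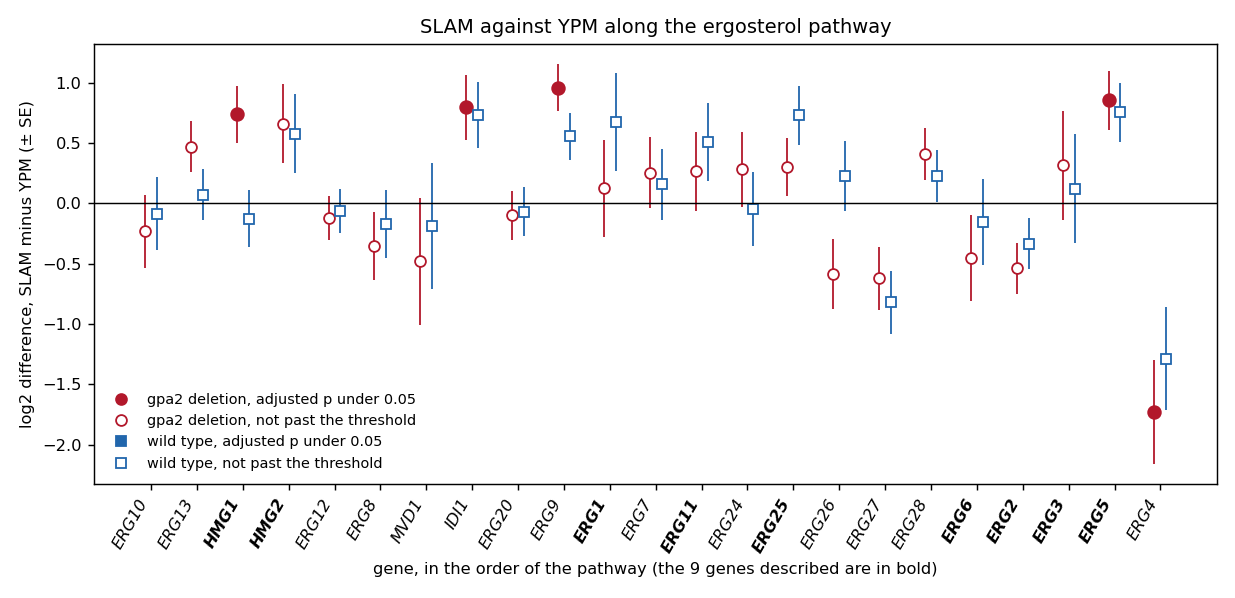
SLAM minus YPM on the log2 scale with its standard error for the enzyme genes in pathway order, in the gpa2 deletion and in the wild type, with the 9 genes described in bold. Filled points passed an adjusted p of 0.05: HMG1, IDI1, ERG9 and ERG5 higher and ERG4 lower in the deletion, and none in the wild type.

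Of 10 regulators of sterol genes, 0 rose and 2 fell in the deletion in SLAM, and 0 rose and 1 fell in the wild type, with medians of -0.43 and -0.19. UPC2, a sterol-sensing activator of ERG genes, averaged 5.14 in SLAM against 6.04 in YPM in the deletion and fell by 0.90 (adjusted p = 0.0103). Its SLAM mean was under the 5.60 read from the deleted GPA2, and with single arrays left out its difference lay between -1.06 and -0.75 and the call was lost without deletion YPM 1 (adjusted p = 0.0530). SUT1, a factor for sterol uptake, fell by 0.83 in the deletion (adjusted p = 0.0362) and by 0.89 in the wild type (adjusted p = 0.0482).

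The SUT1 call was lost in the deletion without deletion SLAM 1 or 2, deletion YPM 1 or 2, or wild-type YPM 2, with an adjusted p of up to 0.162. The wild-type SUT1 call was lost without deletion SLAM 1, deletion YPM 1, wild-type SLAM 1 or 3, or any wild-type YPM array, with an adjusted p of up to 0.151. ECM22, the paralogue of UPC2, was at 0.19 in the deletion (adjusted p = 0.633) and 0.31 in the wild type (adjusted p = 0.444), a gene named here after its values were seen.

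Genes that control the turnover of HMG-CoA reductase were read beside HMG1 and HMG2. Of 10, 1 rose and 1 fell in the deletion in SLAM, and 1 rose and 0 fell in the wild type, with medians of 0.15 and -0.27. NSG2 and NSG1 are yeast relatives of mammalian INSIG, and the Nsg1 protein protects the Hmg2 enzyme from degradation. NSG2 averaged 11.59 ± 0.26 in SLAM against 10.60 ± 0.17 in YPM in the deletion (adjusted p = 0.00719) and 11.34 ± 0.35 against 10.48 ± 0.12 in the wild type (adjusted p = 0.0331). NSG1 averaged 9.20 ± 0.25 in SLAM against 10.57 ± 0.10 in YPM in the deletion and fell by 1.37 (SE 0.25, adjusted p = 0.00246). Wild-type NSG1 was at -0.79 (adjusted p = 0.0568), and its groups did not overlap.

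Both deletion calls passed with any single array left out. The wild-type NSG2 call was lost without deletion YPM 1, wild-type SLAM 3 or any wild-type YPM array, with an adjusted p of up to 0.107. The ubiquitin ligase genes HRD1 and HRD3 and the other 6 genes of the list were not called in either strain.

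Of 17 genes for sterol esters and sterol movement, 3 rose and 1 fell in the deletion in SLAM, and 0 were called in the wild type, where 2 had an unadjusted p under 0.05. The medians were 0.27 and 0.04. NPC2, a vacuolar sterol-transfer protein, averaged 11.86 ± 0.18 in SLAM against 11.08 ± 0.14 in YPM in the deletion (adjusted p = 0.00927), and passed with any single array left out. Its membrane partner NCR1 rose by 0.92 (adjusted p = 0.0436) and TGL1, a steryl ester hydrolase, by 0.80 (adjusted p = 0.0275). ATF2, which acetylates sterols, fell by 1.46 (adjusted p = 0.0209). In the wild type the smallest p-values were those of OSH7 at 0.68 (adjusted p = 0.0768) and KES1 at -0.52 (adjusted p = 0.109), which encode sterol- and lipid-transfer proteins.

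The NCR1 call held only without wild-type SLAM 1, 2 or 3, with an adjusted p of up to 0.120 without another array. TGL1 was lost without replicate 1 or 3 of either deletion group, with an adjusted p of up to 0.129. ATF2 was lost without deletion SLAM 2 or 3 or deletion YPM 1 or 2, with an adjusted p of up to 0.0959.

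Hypoxic and anaerobic genes, which cells raise when oxygen, heme or sterols are short, gave 1 rise and 3 falls among 12 measured in the deletion in SLAM, and 0 calls in the wild type, where 1 had an unadjusted p under 0.05. The medians were -0.36 and 0.10. CYC7, a cytochrome c isoform, averaged 10.83 ± 0.42 in SLAM against 8.85 ± 1.22 in YPM in the deletion, a rise of 1.98 (adjusted p = 0.0242). The cell wall mannoprotein genes TIR1, DAN1 and TIR3 fell by 2.09, 1.57 and 1.29 in the deletion (adjusted p = 0.0331, 0.0451 and 0.0214). Their YPM groups in the deletion were uneven, with an SD of 1.52 for TIR1 and 1.42 for DAN1. In the wild type the smallest p-values were those of HEM13, coproporphyrinogen oxidase, at 1.06 (adjusted p = 0.132) and CYC7 at 1.21 (adjusted p = 0.173).

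No hypoxic call held with every single array left out. CYC7 was lost without deletion SLAM 1 or 2 or deletion YPM 1 or 2 (up to 0.108), TIR1 without deletion SLAM 1 or 3 or deletion YPM 1 or 2 (up to 0.136), and TIR3 without deletion SLAM 3 or deletion YPM 1 or 2 (up to 0.0904). DAN1 held only without deletion YPM 3 or wild-type SLAM 2, and its adjusted p was otherwise up to 0.194. Without wild-type SLAM 2 and deletion SLAM 3 together, 2 genes of the list rose and 0 fell in the deletion.

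Of 7 heme synthesis genes, 2 fell in each strain in SLAM and 0 rose, with medians of -0.08 and -0.23. HEM12, uroporphyrinogen decarboxylase, averaged 8.73 ± 0.23 in SLAM against 10.46 ± 0.07 in YPM in the deletion (adjusted p = 0.00098) and 9.35 ± 0.39 against 10.38 ± 0.41 in the wild type (adjusted p = 0.0290). HEM2, aminolevulinate dehydratase, fell by 0.71 in the deletion (adjusted p = 0.0487) and by 0.87 in the wild type (adjusted p = 0.0404). The deletion's HEM12 call passed with any single array left out, and in the wild type it was lost without wild-type SLAM 1 or 3 or wild-type YPM 2 or 3 (up to 0.125). The HEM2 call in the deletion held only without wild-type SLAM 1, 2 or 3 (otherwise up to 0.153). The wild-type HEM2 call was lost without deletion SLAM 1, deletion YPM 1 or 2, wild-type SLAM 3 or any wild-type YPM array (up to 0.151).

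Of 10 genes that draw on the isoprenoid intermediates of the pathway for other products, 1 fell in each strain in SLAM and 0 rose, with medians of -0.07 and -0.09. It was COX10, heme A farnesyltransferase, at 7.86 ± 0.56 in SLAM against 9.24 ± 0.13 in YPM in the deletion (adjusted p = 0.00394) and 8.17 ± 0.08 against 9.57 ± 0.38 in the wild type (adjusted p = 0.0135). The deletion's call passed with any single array left out, and the wild type's was lost without wild-type SLAM 3 or wild-type YPM 2 (up to 0.0727).

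Sphingolipids lie beside ergosterol in the plasma membrane. Of 11 genes for their synthesis, 3 fell in the deletion in SLAM and 2 in the wild type, and 0 rose in either. The medians were -0.39 and -0.38. ELO3 and ELO2, which elongate fatty acids to very long chains, averaged 8.24 ± 0.50 and 7.82 ± 0.71 in SLAM against 10.53 ± 0.46 and 10.10 ± 0.23 in YPM in the deletion (adjusted p = 0.000529 and 0.00184). In the wild type ELO3 fell by 1.19 (adjusted p = 0.0264) and ELO2 by 1.50 (adjusted p = 0.0302). LCB1, a subunit of serine palmitoyltransferase, fell by 0.68 in the deletion (adjusted p = 0.0183). The ELO2 and ELO3 calls in the deletion passed with any single array left out.

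LCB1 was lost without deletion SLAM 1 or deletion YPM 1 or 2 (up to 0.0849). The wild-type ELO3 call was lost without wild-type SLAM 1 or 3 or wild-type YPM 2 or 3 (up to 0.111), and ELO2 without those or wild-type YPM 1 (up to 0.121). The difference of responses passed for no gene of any list, and the smallest unadjusted p among them was that of ELO3, at -1.10 (unadjusted p = 0.0216, adjusted p = 0.980).

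Between the strains in SLAM, 1 gene of the 9 lists was called, ELO3, where 2.81% of all genes were called. ELO3 averaged 8.24 ± 0.50 in the deletion against 9.56 ± 0.22 in the wild type, a fall of 1.32 (SE 0.30, adjusted p = 0.0399). That call held only without deletion SLAM 2, deletion YPM 3 or wild-type SLAM 3, and the adjusted p was otherwise up to 0.136. Among the late pathway genes ERG9 was 0.66 higher in the deletion (adjusted p = 0.0769) and ERG24, a sterol reductase, 0.79 higher (adjusted p = 0.152). Among the early ones ERG13, HMG-CoA synthase, was 0.48 higher (adjusted p = 0.198) and ERG8 was at -0.29 (adjusted p = 0.591). NSG1 was at -0.87 (adjusted p = 0.0713) and CDC48, an ATPase that extracts proteins for degradation, at 0.88 (adjusted p = 0.118).

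The other lists had 0 calls between the strains in SLAM, beside the 2.81% of all genes. By p their leading genes were ATF2 at -1.32 (adjusted p = 0.0878) and NCR1 at 0.98 (adjusted p = 0.0898), MOD5 at -0.83 (adjusted p = 0.0818) and NUS1 at 0.45 (adjusted p = 0.214). The regulator ROX1 was at -1.04 (adjusted p = 0.134) and HAP1 at -1.16 (adjusted p = 0.135), the probe set of HAP1 being of a type that can share targets. OLE1, the fatty acid desaturase, was at 1.14 (adjusted p = 0.118), DAN4 at 0.77 (adjusted p = 0.172), HEM12 at -0.63 (adjusted p = 0.174) and HEM3 at -0.42 (adjusted p = 0.636). In YPM 0 genes of any list were called between the strains, beside 0.0177% of all genes. The genes under 0.05 before adjustment were DAN1 at 1.88, HAP1 at -1.23 and NCR1 at 0.68, each with an adjusted p of 0.994 from limma. Of the 12 hypoxic genes 11 had a positive difference in YPM, beside 2230 of all 5656 genes. Signs are given for this list alone, and its genes were read on the same arrays, so the count is no test. Their median was 0.54 beside -0.07 over all genes, and DAN1 passed without deletion YPM 3 (adjusted p = 0.0078). The YPM arrays of the deletion in this comparison are those behind the falls of TIR1, DAN1 and TIR3 in SLAM.

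The mean of the 9 ergosterol genes, each centred on its own mean over the 12 arrays, lay at 0.19 in the deletion in SLAM, -0.06 in the deletion in YPM, 0.09 in the wild type in SLAM and -0.22 in the wild type in YPM. Likeness to that profile was measured as the root mean square difference over the 12 arrays on the log2 scale. The genes outside the lists that came closest were GPX2 (0.144), YDR131C (0.145), VPH1 (0.147), FLO11 (0.148) and NEO1 (0.153), beside a median of 0.506 over all genes. Profiles were not scaled and the mean varied little, so a gene that hardly varies also scores low. A low score is thus no sign of a shared response. In the wild type GPX2 lay at -0.05 in SLAM and -0.02 in YPM, whereas FLO11 lay at 0.17 and -0.14. The 9 genes themselves lay between 0.224 for ERG11 and 0.493 for ERG6, all under the median over all genes. Among all genes ERG11 ranked 60 and ERG6 ranked 2720 in closeness. The 9 genes enter that mean, and the genes just named were picked as the closest. Neither comparison is therefore a test.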

How the data were processed

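The study hybridised RNA from 12 yeast samples, 3 a group, to Affymetrix Yeast S98 arrays. The authors deposited 1 table of log2 expression values with 9335 probe sets. GCOS 1.2, MAS5 and RMA are listed in the submitters' processing notes, but not which one gave the values, and detection calls are not given in the sources used here. The values were used as they stood. Left out were 60 control probe sets, 328 with several gene symbols and 2443 with none. A gene with several probe sets (315 genes) was read from the brightest, giving 5656 genes; for 300 of these the probe set can hybridise to more than 1 target. RNA was amplified from a poly-T primer, per the labels' protocols.

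Group means over the 12 arrays were estimated jointly in limma 3.58.1 (lmFit and eBayes) under R 4.3.3, with 8 residual degrees of freedom. The 5 comparisons were tested two-sided, with Benjamini-Hochberg adjustment over all genes, and the code was tested on simulated data. The median standard error was 0.29, or 0.41 for the difference of responses, and 3 arrays a group limit the precision. Errors are SD for group means and standard errors for differences.

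The 9 genes were named in every comparison. From the other lists, genes called were named, or the 2 with the smallest p where none was called; for the strains in YPM only those with an unadjusted p under 0.05 were named. ECM22 and, among listed genes not called, ERG9, NCP1 and NSG1 in the wild type were added for comparison. HRD1 and HRD3 were named only as not called. The genes, the lists and several alternatives were chosen with earlier results of these data known. Of the 13 hypoxic genes listed, PAU5 had no probe set of its own and was not analysed here. Alternatives were other scalings, a floor at log2 4.31, other gene filters and probe set rules, other variance models, stricter thresholds, and arrays left out.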

Additional observations from a re-analysis of the deposited data

How the results depend on the processing

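No paired analysis was run, because the labels give the arrays no shared replicate numbers. The numbered array titles alternate between YPM and SLAM within each strain. The labels do not state whether a YPM array and the SLAM array after it share a culture. The array numbers used here follow the order of the titles and only name an array. Whether pairing the arrays changes the results was not tested.

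Among the 9 ergosterol genes, 2 were called between media in the gpa2 deletion. This count was 1 over all probe sets (ERG5), where 18.2% of probe sets were called, and 5 with array weights, where 58.8% of all genes were. It was 0 at an adjusted p under 0.01 and at a change of at least 2-fold, beside 14.5% and 20.5% of all genes. Leaving out single arrays gave 0 to 3. In the wild type the count was 0. It was 1 with quantile normalization (ERG25, beside 13.1% of all genes called) and 1 with median centring (ERG5, beside 13.2%). It was 5 with array weights (43.4% of all genes called). It was 3 without wild-type SLAM 2 and deletion YPM 3 (HMG2, ERG3 and ERG5, beside 27.0%). It was 4 without wild-type SLAM 2 and deletion SLAM 3 (31.4%). Leaving out single arrays gave 0 to 2. Between the strains in SLAM the count was 0. It was 1 (HMG1) with median centring, beside 3.16% of all genes, and with array weights, beside 18.6%. With single arrays left out it was 0 to 1, the 1 being without wild-type SLAM 1, beside 3.38%. Between the strains in YPM, and for the difference of responses, it was 0 under every alternative run, also with array weights, which called 4.14% and 4.07% of all genes there.

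Of 1116 values of single genes under the alternatives, 1055 kept their side of the threshold and moved by less than the residual spread or kept their direction, 30 newly passed, 16 no longer passed and 15 moved further without passing. The sign changed in 62, none of which passed under either setting. Over all genes, the 1592 calls between media in the deletion became 3323 with array weights and 820 at an adjusted p under 0.01. The 711 in the wild type became 2454 and 70, and 376 when only the compared arrays were fitted. The 159 between the strains in SLAM became 1054 with array weights and 1 when only the compared arrays were fitted. The cause of these changes was not tested. No detection calls were used, so signal over background was not measured, and 3 arrays a group limit the precision.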
